A study of Mus musculus with 2 samples.

Results

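The genes that encode subunits of the transcription factor AP-1 were followed across the cells of injured mouse gastrocnemius, a calf muscle. They are the 9 genes Jun, Junb, Jund, Fos, Fosb, Fosl1, Fosl2, Atf3 and Maff, taken by name out of the 19169 genes in the table. All 9 were detected, and the rule, a list of names, uses no measured level. The samples were 1 single-cell library from WT mice and 1 from mice with a global knockout of Gsdme (GSDME-KO, KO below), the gene of the pore-forming protein gasdermin E. Per the study's methods only male mice were used. Both libraries came from muscle injured with cardiotoxin, a snake venom toxin that destroys muscle fibers (CTX in the labels), and were taken on day 14 after injury. The study's methods give 5 mice per genotype without saying whether they were pooled, so each genotype is a single sample here and nothing could be tested between genotypes.

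AP-1 is a dimer of basic leucine zipper proteins. JUN proteins pair with themselves or with FOS proteins, whereas FOS proteins need a JUN partner, and ATF3 and the small MAF protein MAFF join the same network with their own partners. Many of these genes are early-response genes that cells switch on within minutes of growth factors, stress or injury, and that enzymatic digestion of a tissue also induces. In muscle they are studied in stem cell activation, in macrophages and in the fibroblast-like cells that build scar.

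The RefSeq promoter table held 8 of the 9 members, all but Fosl1, with 10 windows of 300 bases that run from 250 bases before a start site to 50 bases after it (build GRCm38.p6). The 5 windows below belong to the members whose levels are described most closely. Fos, Jun and Atf3 had similar patterns over cell types, Maff a less similar one, and Fosl2 did not follow them. They lie at chr12:85473640-85473939 on the plus strand (Fos), chr4:95052173-95052472 on the minus strand (Jun), chr1:191183284-191183583 on the minus strand (Atf3), chr5:32136222-32136521 on the plus strand (Fosl2) and chr15:79347270-79347569 on the plus strand (Maff). Maff has 3 start sites in the table, and the printed one was picked after the motif matches were seen. Each sequence reads 5′ to 3′ on the strand of its gene, and capitals mark matches to the motifs named after the sequences.
Fos: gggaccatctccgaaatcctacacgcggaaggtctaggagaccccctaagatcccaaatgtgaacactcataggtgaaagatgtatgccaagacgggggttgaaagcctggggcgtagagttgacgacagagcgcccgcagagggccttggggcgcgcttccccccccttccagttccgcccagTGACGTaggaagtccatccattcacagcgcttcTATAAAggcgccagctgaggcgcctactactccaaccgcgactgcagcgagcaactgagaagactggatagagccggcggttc
Jun: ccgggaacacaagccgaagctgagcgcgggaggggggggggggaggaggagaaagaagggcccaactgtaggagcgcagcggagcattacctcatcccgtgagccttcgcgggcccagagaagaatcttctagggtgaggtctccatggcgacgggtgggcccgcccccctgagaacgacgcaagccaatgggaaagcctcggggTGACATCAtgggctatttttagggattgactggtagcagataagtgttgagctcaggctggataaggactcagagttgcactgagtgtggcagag
Atf3: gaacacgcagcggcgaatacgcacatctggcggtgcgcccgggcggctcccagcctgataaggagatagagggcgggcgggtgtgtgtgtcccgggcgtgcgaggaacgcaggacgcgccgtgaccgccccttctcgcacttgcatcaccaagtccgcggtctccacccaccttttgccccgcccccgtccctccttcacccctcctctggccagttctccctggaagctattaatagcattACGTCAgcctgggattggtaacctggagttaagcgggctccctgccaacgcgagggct
Fosl2: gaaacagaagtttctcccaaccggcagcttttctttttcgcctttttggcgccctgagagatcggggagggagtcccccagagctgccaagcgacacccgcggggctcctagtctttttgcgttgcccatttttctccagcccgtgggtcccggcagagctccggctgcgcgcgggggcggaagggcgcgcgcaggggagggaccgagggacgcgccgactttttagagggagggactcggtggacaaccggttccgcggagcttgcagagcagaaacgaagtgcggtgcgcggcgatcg
Maff: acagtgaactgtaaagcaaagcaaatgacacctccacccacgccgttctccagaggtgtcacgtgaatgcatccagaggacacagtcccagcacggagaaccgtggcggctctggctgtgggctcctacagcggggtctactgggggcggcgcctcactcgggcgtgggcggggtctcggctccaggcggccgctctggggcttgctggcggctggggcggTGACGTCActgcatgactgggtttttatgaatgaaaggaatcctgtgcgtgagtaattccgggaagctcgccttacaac

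A total of 6 sites were searched on both strands, and the CRE core overlaps the full CRE. The TRE, the classical AP-1 site TGAGTCA, was in none of the 10 member windows and in 5.20% of all 32851 promoter windows. The full CRE TGACGTCA, which ATF and CREB proteins bind, was in 1 member window, that of the printed Maff start, against 1.79% of all windows. The CRE core TGACGT lay in 3 member windows, those of Fos, Atf3 and the printed Maff start, against 7.51% of all. In the Fos window it began 66 bases before the start site, and in the Atf3 window, read on the other strand, 8 bases before it. The variant TGACATCA was in the windows of Jun and of another Maff start, in both 45 bases before the start site, against 3.62% of all. TATAAA was in the windows of Fos, 33 bases before the start site, and Junb, at the start site itself (13.6% of all). The CArG box, the site of serum response factor, was in none of the windows (1.63% of all). Bases more than 250 before a start site were not searched. The Fosl2 window held none of the 6. These matches describe letters in short windows and say nothing about binding.

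Whole UMI counts (unique molecular identifiers, 1 per captured RNA molecule) were recovered from the log-transformed table. The library labelled WT had 6354 cells and 44758518 UMIs, and the library labelled KO had 7078 cells and 50930009 UMIs, with medians of 5740 and 5962 UMIs per cell. The 9 members took 536203 UMIs in WT and 671530 in KO, so that counting error is small for the abundant members and wide for Fosl1. Only 4 barcodes occurred in both libraries. For Gsdme RNA itself no decrease in KO could be detected (5.03 UMIs per 1000000 in WT and 4.65 in KO, log2 ratio -0.11, interval -0.38 to 0.16). Since a deletion can leave transcripts that are still counted, this neither checks nor refutes the labels, and each direction below rests on them. Levels are UMIs per 1000000 UMIs of that cell type and library (CPM). Because a UMI counts molecules from the 5′ end, levels of different genes were compared without a length correction. All intervals are exact 95% intervals and cover counting error only, not the spread between animals.

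Cells were clustered without the members, and each cluster took the name of a type, with "-like" added, from fixed marker genes. In all, 8 types had at least 50 cells in each library. They were FAP-like (fibro-adipogenic progenitors, the fibroblast-like cells of muscle, with tendon-like cells counted among them; 2133 cells in WT and 2553 in KO), endothelial-like (1304 and 1281), macrophage-like (832 and 1010), MuSC-like (muscle stem cells; 239 and 240), pericyte-like (182 and 198), Schwann-like (197 and 156), dendritic-like (115 and 128) and T-like cells (81 and 86). Median depth differed little between libraries within a type but much between types, from 1838 and 1754 UMIs per cell in pericyte-like cells to 8645 and 9262 in dendritic-like cells. Cells without a name made up 18.0% of WT and 17.6% of KO cells.

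AP-1 transcripts were abundant in every structural cell type and scarcer in lymphoid and dendritic cells. In WT, the summed level of the 9 members was highest in pericyte-like cells (14742 CPM) and endothelial-like cells (14559 CPM), whose intervals overlapped. FAP-like, macrophage-like and Schwann-like cells followed at 11596, 11462 and 11395 CPM, again with no gap beyond counting error between neighbours. MuSC-like cells held 8328 CPM, and T-like and dendritic-like cells only 4786 and 4593 CPM. In KO the order was pericyte-like (20026 CPM), endothelial-like (15993 CPM), Schwann-like (14387 CPM), FAP-like (12804 CPM), MuSC-like (11355 CPM), macrophage-like (10086 CPM), dendritic-like (4923 CPM) and T-like (4597 CPM). The macrophage-like cells thus stood level with the FAP-like cells in WT and below the MuSC-like cells in KO. Types were not uniform. Among FAP-like cells of WT, a group marked by Hsd11b1 and Mme held 22140 CPM and a group marked by Pi16 held 7334 CPM.

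**Figure D1:**
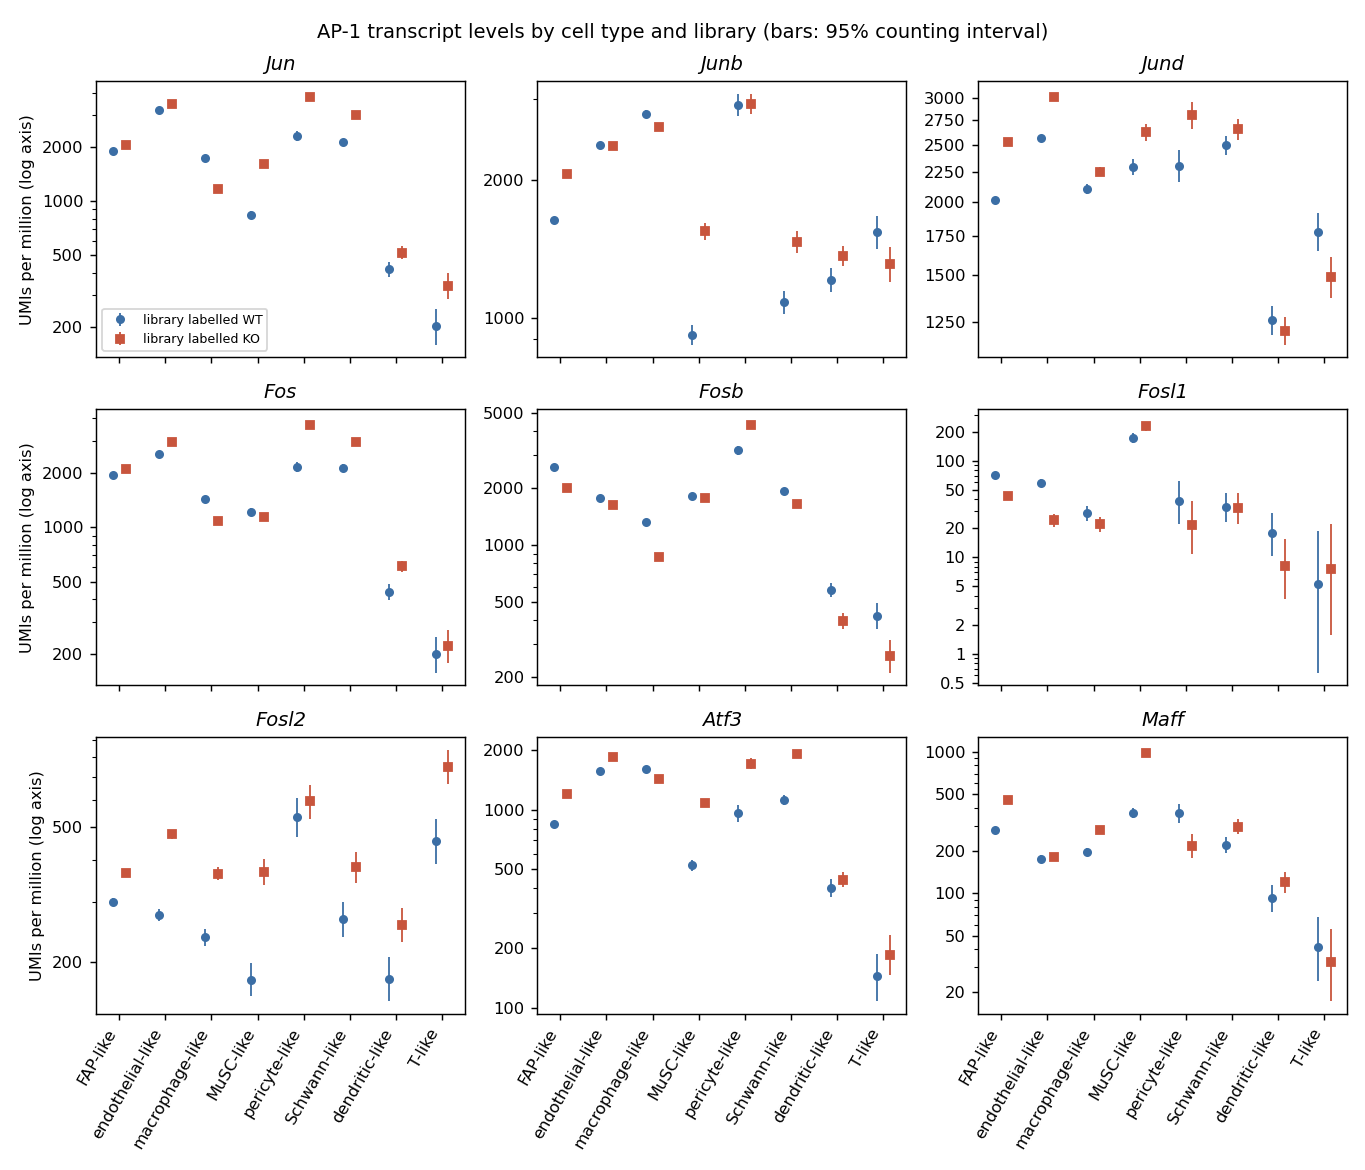
Level of each AP-1 member in UMIs per 1000000 (log axis, a different range in each panel) in the 8 cell types with at least 50 cells per library. Circles are the library labelled WT and squares the library labelled KO, and bars are 95% counting intervals; Fosl2 is higher in the KO library in all 8 types, and Jun and Fos are lowest in T-like cells.

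Among the JUN genes, Jun, the founding and most strongly transactivating member, varied most between cell types. Its WT level ran from 3210 CPM in endothelial-like cells, through 2300 in pericyte-like, 2124 in Schwann-like, 1899 in FAP-like, 1730 in macrophage-like and 841 in MuSC-like cells, to 417 in dendritic-like and 201 in T-like cells. That is a 16.0-fold range, and only the pericyte-like and Schwann-like neighbours had overlapping intervals. Junb, which is a weaker activator and can oppose Jun, spanned 3.17-fold in WT, from 2921 CPM in pericyte-like and 2796 in macrophage-like cells to 921 in MuSC-like cells. Jund, the member that many resting cells keep on, was the most even in WT, from 2564 CPM in endothelial-like to 1256 in dendritic-like cells, a 2.04-fold range. In KO Jund spanned 2.50-fold and Junb 2.24-fold. In T-like cells of WT Jund (1778 CPM) and Junb (1540 CPM) stood far above Jun.

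Among the FOS genes, Fos and Fosb were the more abundant in 7 of the 8 types, all but T-like cells, where Fosl2 exceeded both. Fos, the prototype early-response gene, had the same order of cell types as Jun in WT, from 2550 CPM in WT endothelial-like cells to 199 in T-like cells. Fosb, whose protein also exists in a short stable form, was highest in pericyte-like (3159 CPM) and FAP-like cells (2597 CPM) and lowest in T-like cells (421 CPM). Fosl2, which encodes FRA-2, was the least variable of the 4 between types, led in WT by pericyte-like (534 CPM) and T-like cells (455 CPM) with overlapping intervals. Fosl1, which encodes FRA-1, was the rarest member in all 8 types of WT, although in MuSC-like cells its interval overlapped that of Fosl2. It reached 172 CPM in MuSC-like and 71.9 CPM in FAP-like cells of WT and 5.23 CPM, from 2 UMIs, in T-like cells.

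Atf3, a stress-induced factor that often represses its targets, was highest in WT in macrophage-like (1610 CPM) and endothelial-like cells (1564 CPM), whose intervals overlapped, and lowest in T-like cells (144 CPM). Maff, a small MAF without a transactivation domain, was highest in MuSC-like (368 CPM) and pericyte-like cells (366 CPM) of WT. In T-like cells it stood at 41.8 CPM, which rests on 16 UMIs.

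The cell types differed in subunit mix as well as in amount. JUN genes took from 47.8% of the AP-1 UMIs in FAP-like cells to 73.6% in T-like cells of WT. The FOS-family share in WT was highest in FAP-like (42.5%), MuSC-like (40.7%), pericyte-like (40.0%) and Schwann-like cells (38.2%), lower in endothelial-like cells (32.0%), and lowest in macrophage-like (26.4%), dendritic-like (26.4%) and T-like cells (22.6%). The leading subunit differed between types. Fosb led in FAP-like cells at 22.4%, Jun in endothelial-like cells at 22.0%, Junb in macrophage-like cells at 24.4%, and Jund in MuSC-like cells at 27.5%. In T-like cells Jund and Junb made up 37.2% and 32.2%, and Fosl2 followed at 9.51%, ahead of Fosb, Jun and Fos. Atf3 reached its largest WT share in macrophage-like cells. Maff reached 4.42% in MuSC-like cells and at most 2.48% in the other types, though 6.06% in the lymphatic group of the endothelial-like cells.

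**Figure D2:**
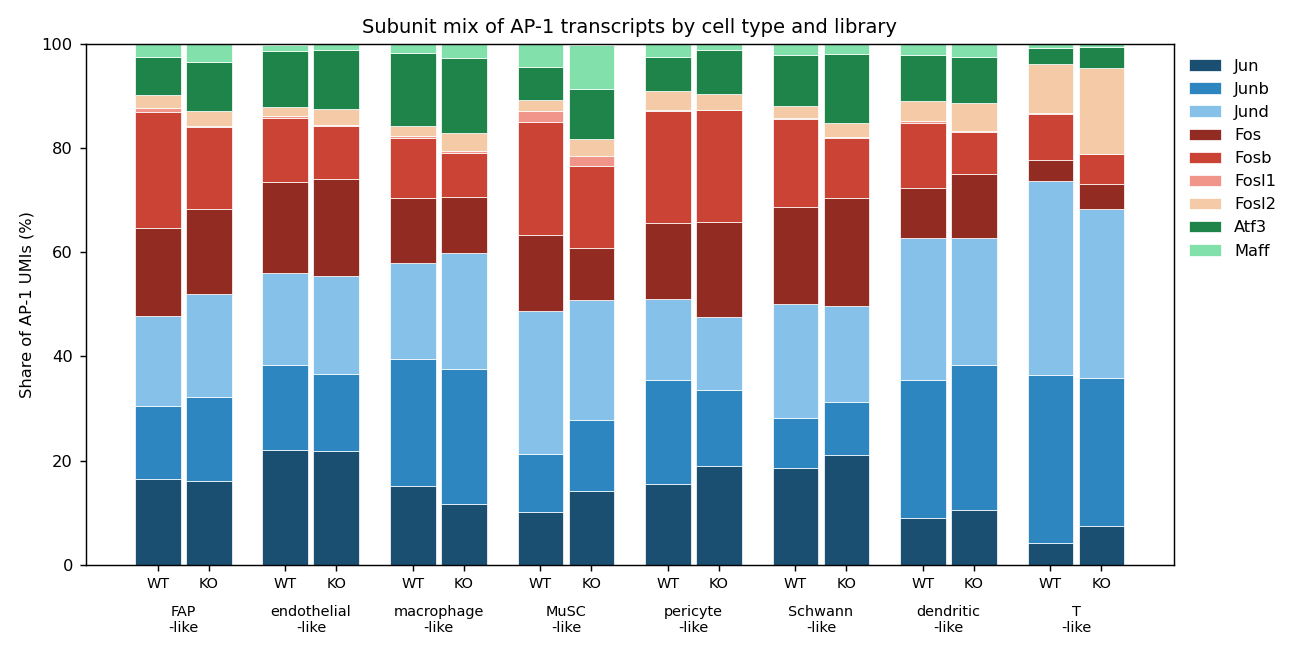
Share of the AP-1 UMIs taken by each of the 9 members (stacked bars, percent) in the libraries labelled WT and KO, for the 8 cell types. JUN genes are blue, FOS genes red to orange, Atf3 and Maff green; Fosb takes 22.4% in WT and 15.7% in KO FAP-like cells, and Fosl2 takes 9.51% and 16.4% in T-like cells.

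Comparing genotypes asks whether loss of gasdermin E went with another amount or mix of AP-1. In the library labelled KO, the level of Fosl2 was higher in all 8 types, those of Atf3 and Jun in 7 of 8, and that of Fosb was lower in 7 of 8. Some of these differences were within counting error, with intervals that held 0 for Fosl2 in pericyte-like cells (0.15, -0.10 to 0.41), Atf3 in dendritic-like (0.14, -0.06 to 0.33) and T-like cells (0.37, -0.16 to 0.90) and Fosb in MuSC-like cells (-0.03, -0.11 to 0.04). With cells weighted equally, Jun in FAP-like cells (-0.04) and Fosb in Schwann-like cells (0.18) changed sign. The summed level moved less than 1.5-fold in every type with at least 50 cells. It was higher in KO in MuSC-like (log2 ratio 0.45, interval 0.41 to 0.48), pericyte-like (0.44, 0.40 to 0.49) and Schwann-like cells (0.34, 0.30 to 0.37), slightly higher in FAP-like (0.14, 0.13 to 0.15) and endothelial-like cells (0.14, 0.12 to 0.15), and lower in macrophage-like cells (-0.18, -0.20 to -0.17). The median ratio over all genes lay between -0.07 and 0.04 in these 6 types.

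In 6 of the 8 types the FOS family took a smaller share in KO. Its summed level was lower in FAP-like (log2 ratio -0.13) and macrophage-like cells (-0.37) but not in MuSC-like (0.05), Schwann-like (0.21), endothelial-like (0.13) and dendritic-like cells (0.07), so there a smaller share did not go with a lower FOS level. The difference was largest in MuSC-like cells, with 40.7% in WT and 30.9% in KO (-9.78 points, interval -10.9 to -8.69), and in FAP-like cells, with 42.5% and 35.2% (-7.26 points, -7.53 to -6.99). Macrophage-like cells had 26.4% and 23.2% (-3.21 points, -3.73 to -2.69) and Schwann-like cells 38.2% and 35.0% (-3.20 points, -4.38 to -2.01). Endothelial-like cells (-0.154 points, -0.528 to 0.219) and dendritic-like cells (-0.592 points, -2.35 to 1.16) had intervals that held 0. The share was larger in KO in pericyte-like (2.80 points, 1.26 to 4.33) and T-like cells (4.37 points, 1.54 to 7.19). In the FAP-like cells the share of Fosb alone differed by -6.71 points, while Jund, Atf3 and Junb each took between 2.01 and 2.42 points more.

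To read single members, a gene was called where the libraries differed at least 1.5-fold with at least 50 UMIs over both. In FAP-like cells 1 of 9 members was called higher in KO and 1 lower, against 4.09% and 6.02% of 12088 genes. Maff, at 280.1 CPM in WT and 455 in KO, was the higher (log2 ratio 0.70, interval 0.65 to 0.75). Fosl1, at 71.9 and 43.4 CPM, was the lower (-0.73, -0.85 to -0.61). Of the uncalled members, Fosb went from 2597 to 2008 CPM (-0.37, -0.39 to -0.35) and Atf3 from 849 to 1195 CPM (0.49, 0.47 to 0.52). Jun (1899 and 2055 CPM) and Fos (1954 and 2089 CPM) differed by 0.11 and 0.10 on the log2 scale.

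The FAP-like groups differed in Jun and Fos in both directions. A group of 179 WT and 268 KO FAP-like cells, led by the chaperone genes Hspa1a, Hspb1 and Hspa1b and also by Atf3, though heat-shock genes and members were kept out of the clustering, had a summed level of 14135 CPM in WT and 21998 in KO (log2 ratio 0.64). In that group Atf3 stood at 1321 and 2932 CPM, Fos at 2606 and 4571, and Jun at 2720 and 4442. Without that group the log2 ratio of the FAP-like cells was 0.04 for the summed level, -0.05 for Jun and -0.09 for Fos. Atf3 then stood at 0.29, Maff at 0.64, Fosl1 at -0.65 and Fosb at -0.40. The FOS-family share differed by -7.12 points without it. Other groups moved too. In the Pi16 group (284 and 372 cells) Jun stood at 733 and 1118 CPM (0.61) and Fos at 736 and 1251 CPM (0.77), and Fos was also higher in KO in the Hsd11b1 Mme group (0.33) and in tendon-like cells (0.23). Fos was lower in KO in the groups led by Igkc (-0.66) and Col22a1 (-0.22) and in the Sfrp4 group (-0.28). Without tendon-like cells Jun and Fos differed by 0.21 and 0.24, so the small differences of the whole type depend on which cells are counted.

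In endothelial-like cells the genes of FRA-1 and FRA-2 went in opposite directions. Fosl2 was called higher, at 275 CPM in WT and 475 in KO (0.79, 0.71 to 0.86), and Fosl1 lower, at 58.8 and 24.2 CPM (-1.28, -1.53 to -1.03), so that 1 of 9 was called each way against 4.30% higher and 3.84% lower of 10407 genes. Fosl1 UMIs, 478 in WT and 185 in KO, were most numerous in a group led by Adamts4, a matrix protease gene, which held 191 and 86 of them (269 and 98.8 CPM) and had Fosl1 itself among its 10 leading genes. Jun (3210 and 3486 CPM), Junb (2384 and 2372 CPM) and Maff (175 and 179.7 CPM) were close between the libraries. Fos went from 2550 to 2967 CPM (0.22, 0.19 to 0.25).

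Among the 8 types, macrophage-like cells were the only type in which both Jun and Fos were lower in KO. Jun stood at 1730 CPM in WT and 1174 in KO (-0.56, -0.61 to -0.51), just inside the 1.5-fold limit, and Fos at 1439 and 1090 CPM (-0.40, -0.45 to -0.35). Fosb was called lower, at 1322 and 862 CPM (-0.62, -0.67 to -0.56), and Fosl2 higher, at 237 and 364 CPM (0.62, 0.52 to 0.73). Jun passed the limit under 3 alternatives (-0.81 with cells weighted equally, -0.63 without integration and -0.60 by marker score), Fos passed it with cells weighted equally (-0.65), where Fosl2 lost its call (0.53), and Fosb lost its call when centred on the median gene (-0.58). A single call of 9 each way compares with 4.92% of 8887 genes higher and 6.99% lower. Jund (2105 and 2248 CPM), Junb (2796 and 2608 CPM) and Atf3 (1610 and 1437 CPM) moved little, so that Jund took 18.4% of the AP-1 UMIs in WT and 22.3% in KO, and Jun 15.1% and 11.6%.

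The macrophage difference was uneven over groups. In the Lyve1 group, the resident macrophages that line vessels (237 cells in WT and 248 in KO), the summed level went from 16419 to 12776 CPM (-0.36, -0.39 to -0.33), with Jun at 3086 and 1646 CPM (-0.91, -0.99 to -0.83) and Fos at 2238 and 1307 CPM (-0.78, -0.87 to -0.69). The Trem2 group, lipid-handling macrophages (59 and 68 cells), held 4940 and 5062 CPM in all (0.04, -0.04 to 0.11). Its Jun level was lower too, at 266 and 120.1 CPM (-1.15, -1.55 to -0.76), and its Fosl2 level higher, at 139 and 301 CPM (1.12). Macrophage-like cells outside both groups were mixed. Jun stood at 3097 and 1246 CPM (-1.31, -1.55 to -1.08) in a group led by the hemoglobin gene Hbb-bt (129 and 178 cells), but at 2547 and 2471 CPM (-0.04, -0.12 to 0.03) in a group led by Tulp3 (179 and 214 cells). The Hbb-bt group was shallow, with a median of 947 UMIs per cell. In a group led by Flrt3 (174 and 239 cells) Jun stood at 185 and 151 CPM (-0.29, -0.56 to -0.02). The differences between groups were not tested.

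**Figure D3:**
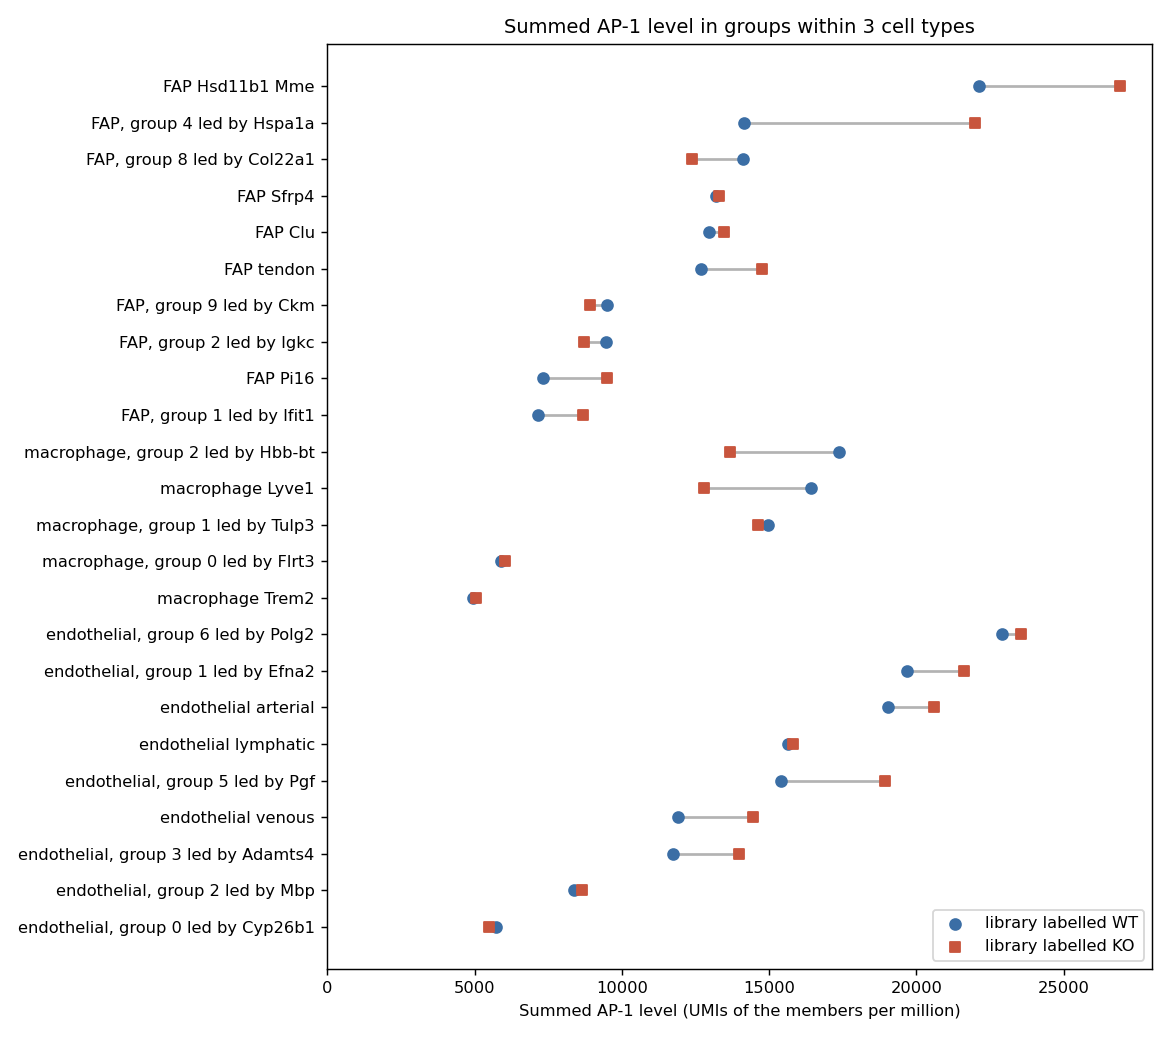
Summed level of the 9 members (UMIs per 1000000, axis from 0) in groups within the FAP-like, macrophage-like and endothelial-like cells, as circles for the library labelled WT and squares for the library labelled KO, joined by a line. The group led by Hspa1a goes from 14135 to 21998 and the Lyve1 group from 16419 to 12776.

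MuSC-like cells had the most calls. In all, 5 of 9 members (55.6%) were higher in KO and none lower, against 13.5% higher and 9.79% lower of 6305 genes. Maff went from 368 to 976 CPM (1.41, 1.27 to 1.55), the largest difference of a called member in the 8 types. Atf3 went from 523 to 1081 CPM (1.05, 0.93 to 1.17), Fosl2 from 178 to 369 (1.05, 0.84 to 1.26), Jun from 841 to 1617 (0.94, 0.85 to 1.04) and Junb from 921 to 1547 (0.75, 0.65 to 0.84). Fos (1220 and 1136 CPM) and Fosb (1817 and 1776 CPM) were close between the libraries. With cells weighted equally Junb lost its call (0.43). Fos, Fosb and Jund took smaller shares of the mix, 14.6%, 21.8% and 27.5% in WT against 10.0%, 15.6% and 23.1% in KO. Jund did so although its level was higher in KO (2289 and 2626 CPM). The shares of Maff (4.42% against 8.59%), Jun (10.1% against 14.2%), Atf3 (6.28% against 9.52%), Junb (11.1% against 13.6%) and Fosl2 (2.14% against 3.25%) were larger.

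In pericyte-like cells Jun and Fos were higher in KO together. Jun went from 2300 to 3786 CPM (0.72, 0.61 to 0.83), Fos from 2165 to 3659 (0.76, 0.64 to 0.87) and Atf3 from 958 to 1710 (0.84, 0.67 to 1.01), while Maff went from 366 to 217 (-0.75, -1.11 to -0.40). Of the 8 members with 50 UMIs, 3 were called higher and 1 lower (37.5% and 12.5%), against 7.52% and 10.4% of 3497 genes. Fosl1, with 17 and 11 UMIs, was below the count minimum. These cells were few and shallow, and all 4 calls were lost once a cluster of 293 WT and 348 KO cells with both pericyte and endothelial markers was added. With it Jun, Fos, Atf3 and Maff differed by 0.56, 0.55, 0.42 and -0.19, and Fosl1, which then passed the count minimum, by -0.91, beyond the 1.5-fold limit. Weighting cells equally also lost the calls of Jun (0.52), Atf3 (0.53) and Maff (-0.48).

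In Schwann-like cells, the glia that wrap nerve fibers, 1 of 9 members was called higher and none lower, against 6.86% higher and 5.67% lower of 6138 genes. It was Atf3, which injured nerve is known to induce, at 1119 CPM in WT and 1914 in KO (0.77, 0.67 to 0.88). Jun (2124 and 3017 CPM) and Fos (2135 and 2973 CPM) differed by 0.51 and 0.48. Fosb was lower (1919 and 1653 CPM, -0.22, -0.31 to -0.12), but higher with cells weighted equally (0.18).

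Dendritic-like and T-like cells had few UMIs of the members. In T-like cells Fosl2 stood at 455 CPM in WT and 752 in KO (0.72), Jun at 201 and 338 CPM (0.75, 0.33 to 1.17) and Fosb at 421 and 258 CPM (-0.71, -1.08 to -0.34). In dendritic-like cells Fosb stood at 576 and 398 CPM (-0.53, -0.72 to -0.35) and Fos at 439.6 and 608 (0.47, 0.29 to 0.65). The T-like values came from 77 and 135 UMIs for Jun, so their intervals are wide.

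**Figure D4:**
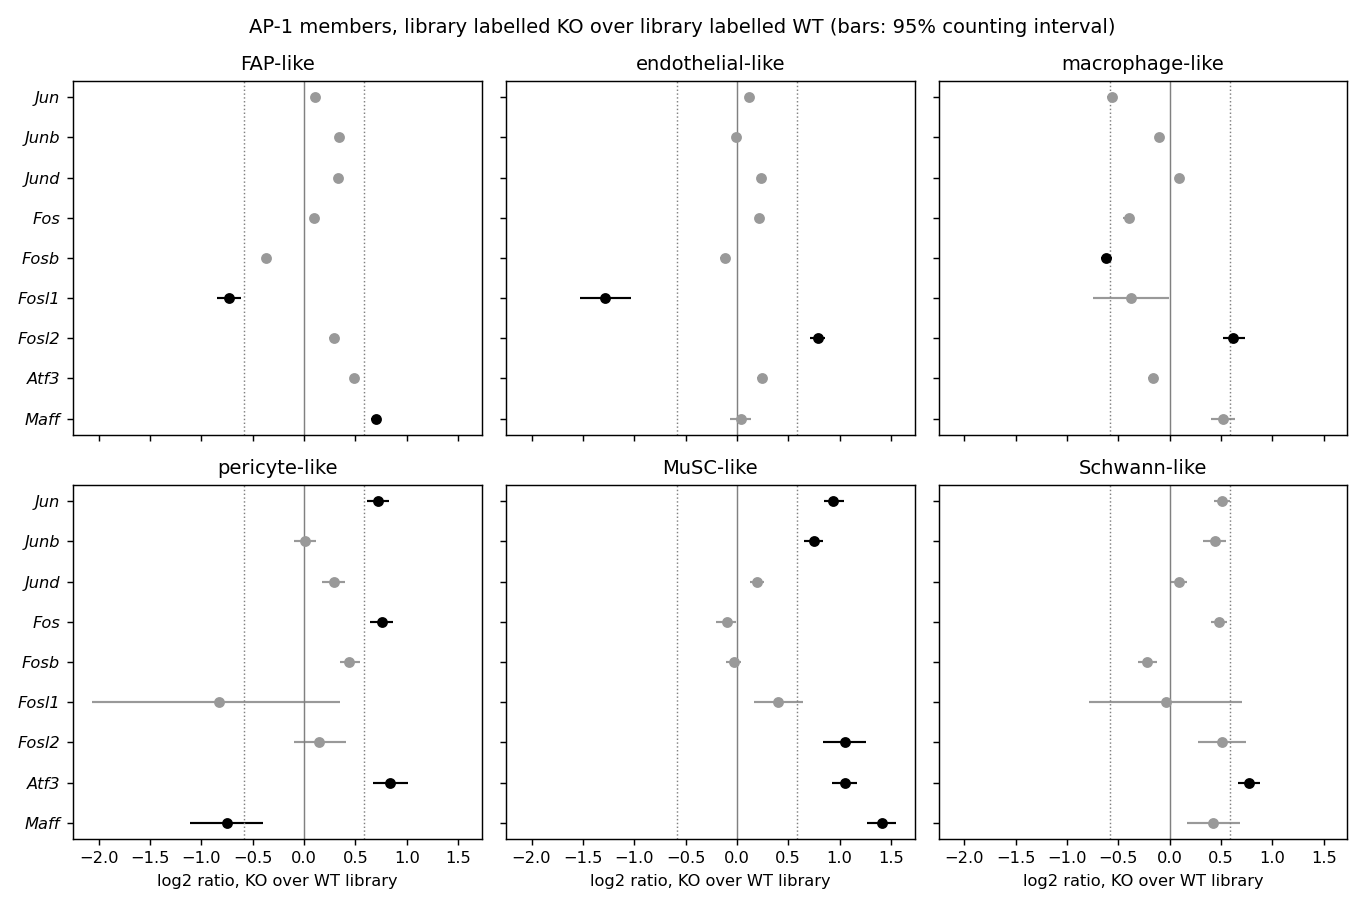
Ratio of each member's level, library labelled KO over library labelled WT, on the log2 scale in 6 cell types, with 95% counting intervals. Dotted lines mark 1.5-fold, black points are called and grey points are not; 5 black points lie to the right in MuSC-like cells, and Fosl1 lies at -1.28 in endothelial-like cells.

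The spread over cells counts each cell once. It does not locate the summed differences, in which deeper cells weigh more. Over cells with at least 1000 UMIs, the median FAP-like cell held 92.0 AP-1 UMIs per 10000 in WT and 92.8 in KO. Both tails lay higher in KO, with lower deciles of 30.9 and 35.6 and upper deciles of 239 and 256. MuSC-like cells differed most at the low end, with lower deciles of 16.7 and 33.4 and medians of 66.4 and 77.1. In macrophage-like cells the median itself was lower in KO, 104 in WT and 80.9 in KO. In Schwann-like cells it was higher, 79.6 and 119.6. Pericyte-like cells were the most spread out, with a lower decile of 13.0 and an upper decile of 334 in WT, and of 6.98 and 447 in KO.

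**Figure D5:**
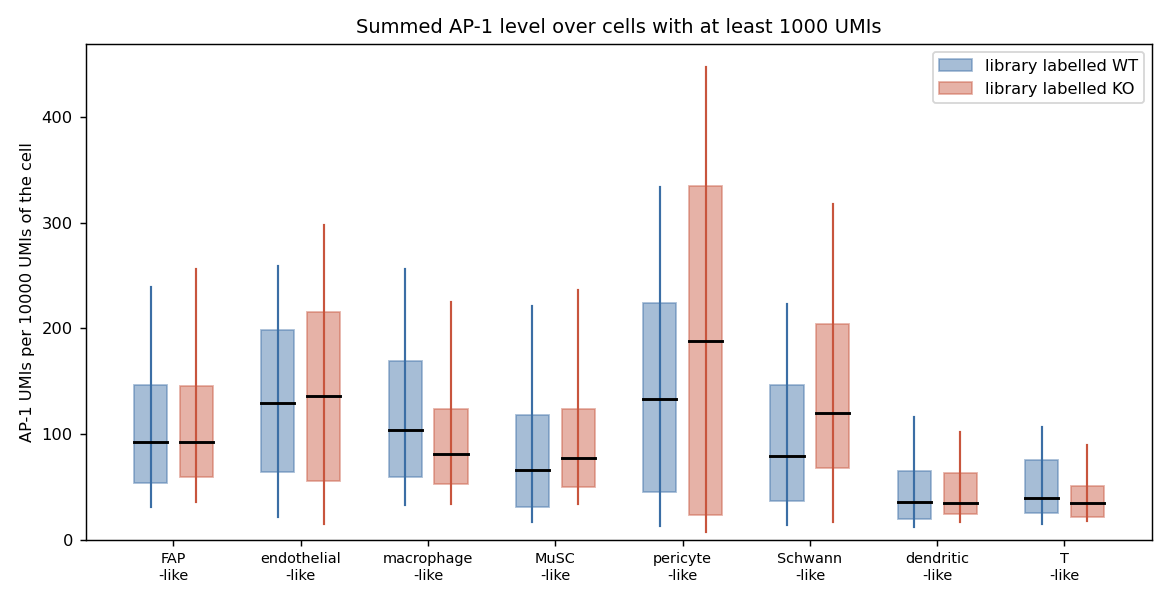
AP-1 UMIs per 10000 UMIs of a cell, over cells with at least 1000 UMIs, by cell type and library (lines from the lower to the upper decile, boxes for the middle quartiles, black bars for medians). The FAP-like medians are 92.0 and 92.8, the macrophage-like medians 104 and 80.9.

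Detection did not always follow the levels. Fos in FAP-like cells had a slightly higher level in KO (1954 and 2089 CPM). After thinning to 1000 UMIs, however, it was found in 45.4% of WT and 40.1% of KO cells. For Jun in macrophage-like cells both level and detection were lower in KO. When each cell was thinned to 1000 UMIs, 51.3% of 749 WT macrophage-like cells (interval 47.6 to 54.9) and 35.7% of 914 KO cells (32.6 to 38.9) held a Jun UMI. Without thinning the shares were 76.2% and 62.2%, and 83 WT and 96 KO cells were too shallow to be thinned. Jun and Fos together were found in 35.8% of WT and 22.3% of KO macrophage-like cells, against 34.1% and 32.1% in FAP-like cells and 59.0% and 56.4% in endothelial-like cells. In T-like cells, where the level was lowest, a Jun UMI was left in 13.8% of 80 WT and 23.5% of 85 KO cells after thinning (35.8% and 40.7% without). No cell type here is known to lack these genes, and free RNA from broken cells was not measured, so the lowest shares may in part be such background.

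Depth within a type moved with some of the differences. In FAP-like cells the summed level was lower in KO among cells of 1000 to 3000 UMIs (11367 and 9977 CPM, log2 ratio -0.19) and higher among cells of 10000 UMIs or more (10868 and 13040 CPM, 0.26). In macrophage-like cells it was lower in KO below 10000 UMIs (between -0.32 and -0.21 in 3 depth classes) but not above (8593 and 8814 CPM, 0.04, -0.01 to 0.08). In endothelial-like cells it was lower in KO below 3000 UMIs (-0.57 and -0.12 in 2 classes) and higher above (0.20 and 0.13). In Schwann-like cells it ran from -0.89 below 1000 UMIs, through 0.76 and 0.60, to 0.08 from 10000 UMIs. The part of depth in these differences was not tested.

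The other genes of the pathway were read as lists. Of 22 dimer partners in the table, such as other ATF, MAF and CNC proteins, FAP-like cells called 1 higher and 3 lower of 21 with enough UMIs (4.76% and 14.3%, against 4.09% and 6.02% of all genes). The higher was Ddit3, which encodes CHOP, at 58.7 CPM in WT and 113 in KO (0.94, 0.84 to 1.04). Jdp2, a JUN dimerization protein that represses AP-1 sites, was lower in FAP-like cells, at 141 and 88.7 CPM (-0.67, -0.75 to -0.58), and in endothelial-like cells, at 116 and 46.3 CPM (-1.33, -1.51 to -1.15). In endothelial-like cells 2 of 20 partners were called lower (10.0%, against 3.84% of all genes) and none higher. In macrophage-like cells 1 of 21 was called higher (4.76%, against 4.92%) and none lower. It was Batf, at 70.4 and 106 CPM (0.59, 0.39 to 0.79). The partner lists had medians of -0.03, 0.00 and 0.07 in these 3 types, beside -0.03, 0.04 and -0.03 for all genes.

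The list of kinases and phosphatases upstream of AP-1 also held the transcription factor gene Srf. Of this list, 2 were called higher and 2 lower of 26 in FAP-like cells (7.69% each way, against 4.09% and 6.02% of all genes). In endothelial-like cells 4 of 28 were called higher (14.3% against 4.30%) and none lower, and in macrophage-like cells 2 of 26 higher (7.69% against 4.92%) and none lower. Mapk9, which encodes the JUN kinase JNK2, was lower in KO FAP-like cells, where it stood at 32.5 CPM (-1.47, -1.60 to -1.34). Mapk8, which encodes JNK1, was at 33.8 and 52.1 CPM in endothelial-like cells (0.62, 0.40 to 0.85). Srf, the serum response factor that drives Fos, was at 25.2 and 39.4 CPM there (0.64, 0.38 to 0.91).

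Of the known AP-1 targets, 8 of 29 were called higher and 3 lower in FAP-like cells (27.6% and 10.3%, against 4.09% and 6.02% of all genes). In macrophage-like cells 10 of 28 were higher and 2 lower (35.7% and 7.14%, against 4.92% and 6.99%). In endothelial-like cells more were lower than higher, with 4 of 24 higher (16.7%, against 4.30%) and 6 of 24 lower, against 3.84% of all genes. Il6, a cytokine, stood at 145 CPM in WT and 510.2 in KO FAP-like cells (1.82, 1.76 to 1.88), and Ccl7, a monocyte chemokine, at 256 and 606 (1.24, 1.19 to 1.29). Hbegf, a growth factor of the EGF family, was lower there, at 439 and 167 CPM (-1.40, -1.45 to -1.34). In macrophage-like cells, where Jun, Fos and Fosb were lower, Il1b stood at 242 and 1001 CPM (2.05, 1.95 to 2.14) and the EGF-family gene Areg at 13.5 CPM in WT (1.89, 1.48 to 2.31). The target medians were 0.21, 0.34 and -0.14 in FAP-like, macrophage-like and endothelial-like cells.

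Early-response genes outside AP-1 and heat-shock genes, both known to answer tissue digestion (here at 37 °C for 30 to 60 minutes), were read in the same cells. Of 31 early genes, 16 were called higher and 2 lower in MuSC-like cells, 10 and 2 in pericyte-like cells, 8 and 2 in Schwann-like cells, 7 and 1 in FAP-like cells, 4 and 4 in macrophage-like cells and 2 and 3 in endothelial-like cells. Those called higher made up 51.6% in MuSC-like cells, against 13.5% of all genes, 32.3% in pericyte-like cells, against 7.52%, and 25.8% in Schwann-like cells, against 6.86%. Those called lower made up 6.45% in each, against 9.79%, 10.4% and 5.67%. FAP-like cells had 22.6% higher and 3.23% lower, against 4.09% and 6.02%. Macrophage-like cells had 12.9% each way, against 4.92% and 6.99%. Endothelial-like cells had 6.45% higher and 9.68% lower, against 4.30% and 3.84%. In macrophage-like and endothelial-like cells only the medians of the early genes lay near those of all genes (-0.00 and 0.05, beside -0.03 and 0.04). Heat-shock genes there had medians of 0.64 and 0.38. Cebpb, an inflammatory C/EBP factor, was lower in KO in all 3 large types, at 742 and 252 CPM in FAP-like cells (-1.56), 205 and 59.9 in endothelial-like cells (-1.77) and 1559 and 676 in macrophage-like cells (-1.21). Higher in KO FAP-like cells were Btg2, at 565 and 1161 CPM (1.04), and Cebpd, at 885 and 1681 CPM (0.93). In endothelial-like cells Zfp36 was higher (0.72) and Ccn2 lower (-0.73). Klf4, a Krüppel-like factor, was lower in macrophage-like cells, at 1475 and 657 CPM (-1.17, -1.23 to -1.11). Of 13 heat-shock genes, 11 were called higher in KO FAP-like cells (median 1.02), 8 in macrophage-like (0.64), 7 in MuSC-like (0.82), 7 in pericyte-like (0.75), 6 in Schwann-like (0.54) and 5 in endothelial-like cells (0.38). In that order these were 84.6%, 61.5%, 53.8%, 53.8%, 46.2% and 38.5%, against 4.09%, 4.92%, 13.5%, 7.52%, 6.86% and 4.30% of all genes. Only 1 was called lower, in Schwann-like cells (7.69%, against 5.67%). Hspa1b, an inducible chaperone, stood at 438 and 1674 CPM in FAP-like cells (1.94, 1.90 to 1.97). The part of digestion or handling in the AP-1 differences was not tested, and with 1 library per genotype the genotype and the preparation cannot be told apart.

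Members and other genes were last compared by their pattern over the 8 cell types in both libraries. These 16 points share libraries, depth and cell types, and r below is Pearson's r of log2(CPM + 10) as a description. Jun was closest to Fos (0.978) and Atf3 (0.94), and Fosb to Fos (0.899). Fosl1 was closest to Maff (0.817). Fosl2 was close to no other member, with r between -0.35 and 0.419, the latter with Junb. Among genes outside the family, the closest to Jun were Crk (0.954), Mrpl27 and Rab13 (both 0.948), and the closest to Fos were Ltbr (0.955), Rab13 (0.948) and Tmtc3 (0.947). Irak1 was among the 3 closest to both Fosl1 (0.929) and Maff (0.913). The closest to the remaining members were Fblim1 to Junb (0.891), Oxr1 to Jund (0.953), Cyth3 to Fosb (0.954), Ccndbp1 to Fosl2 (0.89) and Stk3 to Atf3 (0.942).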

How the data were processed

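Single-cell RNA was measured with a 5′ 10x kit in 1 library per genotype. Per the labels, the deposited values are the natural log of 1 plus the UMIs of a gene per 10000 UMIs of its cell, made by the authors. The submitters' processing notes name Cell Ranger 2.1.1 and mm10, whereas the study's methods name a later Cell Ranger, Seurat and doublet removal. The methods do not say whether doublets were removed from the deposited values. Whole UMIs were recovered for all 29528482 values above 0 (largest distance from a whole number 0.256 UMI). Cells were embedded on 2000 variable genes without members, early-response, heat-shock and kinase genes, using 30 components and Harmony rewritten in numpy. They were clustered by the Louvain method at resolution 0.8 (igraph 0.11.9). Clusters were named from marker lists, by rules adjusted after clusters had been seen, and 11 of 30 stayed unnamed. Scrublet marked 1.59% of WT and 1.54% of KO cells, which were kept.

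UMIs were summed per type and library and divided by the type's total (CPM). Intervals are exact Poisson or binomial intervals at 95% (scipy 1.17.1). A gene was called at 1.5-fold with 50 UMIs over both libraries, and no test was possible with 1 library per genotype. The code was checked on simulated data. The members and the lists (dimer partners, kinases and phosphatases with Srf, early-response, heat-shock and target genes) were chosen with earlier results of these data known. From each list at most the 3 called genes with the largest change in FAP-like, endothelial-like and macrophage-like cells could be named. Alternatives changed the weighting of cells, the clustering, the depth minimum, doublets and centring. Files hold 13432 cells, the number given in the study's results, while its methods state more.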

Additional observations from a re-analysis of the deposited data

Results flagged for a closer look

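Maff differed in direction between cell types. Its log2 ratio of the library labelled KO over the library labelled WT was 0.70 in FAP-like cells and 1.41 in MuSC-like cells, but -0.75 in pericyte-like cells. The difference between the types was not tested, since each genotype had 1 library. The pericyte-like value rests on 163 UMIs in WT and 111 in KO, and it was -0.19 once the cluster with pericyte and endothelial markers was added.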

How the results depend on the processing

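No paired analysis was possible because each genotype had 1 library, and no replicate could be left out. Weighting each cell equally gave log2 ratios of the summed level of 0.06 in FAP-like, 0.08 in endothelial-like, -0.26 in macrophage-like, 0.33 in pericyte-like, 0.31 in MuSC-like and 0.54 in Schwann-like cells. It gave FOS-family differences of -6.98, -4.36 and -1.35 points in FAP-like, macrophage-like and Schwann-like cells, and turned the endothelial-like difference to 1.03 points. Centring on the median gene gave summed ratios of 0.17 in FAP-like, 0.09 in endothelial-like, -0.15 in macrophage-like and 0.51 in pericyte-like cells. Assigning cells by marker score gave summed ratios of 0.16, 0.36 and 0.59 in endothelial-like, pericyte-like and MuSC-like cells and FOS-family differences of -6.85, 0.702 and -7.86 points in FAP-like, pericyte-like and MuSC-like cells. Resolution 0.4 gave 0.16 in FAP-like cells, no integration -0.21 in macrophage-like cells, and early genes kept in the clustering 0.39 in pericyte-like cells. The next 3 settings were chosen after seeing the data. Without tendon-like cells the FAP-like values were 0.20 and -5.68 points, without the group led by heat-shock genes the FAP-like ratio was 0.04, and with the mixed cluster the pericyte-like values were 0.28 and 0.689 points. The causes were not tested. A minimum of 1000 UMIs per cell and removal of Scrublet doublets left all 6 summed ratios, all 6 FOS-family differences and all 54 member ratios within their counting intervals. Of the same 54 member ratios, 26 lay outside their intervals with cells weighted equally, 9 by marker score and 8 when centred. Equal weighting turned Jun and Fos in FAP-like cells to -0.04 and -0.05 and Fosb in Schwann-like cells to 0.18, and marker score turned Fos in MuSC-like cells to 0.26 and Fosb to 0.18. Pericyte-like Atf3 lost its call by marker score (0.45) and with early genes kept (0.46), and Maff by marker score (-0.09).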

Other observations

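Several cell populations outside the 8 types also differed in AP-1 level between the libraries. In an unnamed cluster led by Lyz1 (110 cells in WT and 143 in KO), Fos stood at 704 and 342 CPM (log2 ratio -1.04, interval -1.22 to -0.87) and Fosb at 942 and 393 CPM (-1.26, -1.42 to -1.10), whereas Fosl2 stood at 301 and 466 CPM (0.63, 0.43 to 0.83). A cluster led by Pf4 (30 and 33 cells) stayed unnamed because it held macrophage and FAP markers together. In it Fos stood at 1186 and 3123 CPM (1.40, 1.22 to 1.57) and Jun at 1611 and 3484 CPM (1.11, 0.96 to 1.27). In a cluster led by the cell-division gene Top2a (58 and 36 cells), which also held markers of a second lineage, Fos stood at 914 and 1991 CPM (1.12) and Fosl1 at 113 and 36.6 CPM (-1.63, -2.33 to -0.99).

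The types with fewer than 50 cells in a library had lower summed levels in KO. Mature-muscle-like cells held 5638 and 1788 CPM, with median depths of 853 and 2554 UMIs per cell, and the part of depth was not tested. B-like cells held 4344 and 2952 CPM, NK-like cells 7112 and 4828 CPM, and neutrophil-like cells 6301 and 4717 CPM. Fosl2 nevertheless stood at 642 and 900.3 CPM in NK-like cells (0.49, 0.08 to 0.89). In neutrophil-like cells it stood at 245 and 514 CPM (1.07, 0.45 to 1.72), from 32 and 74 UMIs. Its intervals held 0 in mature-muscle-like (-0.80, -1.84 to 0.32) and B-like cells (0.51, -1.28 to 2.64).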
